A study of Mus musculus with 12 samples.

Results

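The genes described here encode the receptors for interleukin-3 (IL-3) and its family, for the colony-stimulating factors (CSF), for stem cell factor and for FLT3 ligand. They were taken as the probe sets whose single gene symbol in the platform annotation was Il3ra, Csf2rb, Csf2rb2, Csf2ra, Il5ra, Csf1r, Csf3r, Kit or Flt3. This gave 10 of the 45141 probe sets on the array, for 8 of the 9 genes, and all 10 probe sets passed the filter on dim probe sets. Csf2ra, the alpha chain of the receptor for granulocyte-macrophage CSF (GM-CSF), was the only symbol of none of the probe sets used and was not analysed here. Csf2rb was measured by 3 probe sets and each of the other 7 genes by 1.

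Expression was measured on 12 Affymetrix mouse arrays, 3 in each of 4 groups. The Ts1Cje Trib1 and B6 Trib1 groups were acute myeloid leukaemia (AML) cell lines that expressed Trib1, marked WT in the sample titles, on the Ts1Cje and the B6 background. The Ts1Cje and B6 groups were hematopoietic cells without introduced Trib1, from the Ts1Cje genotype and from wild-type mice. Ts1Cje is a mouse model of Down syndrome in which part of chromosome 16 is present in an additional copy, and none of the 9 receptor genes lies on that chromosome. Trib1 belongs to the Tribbles pseudokinases and directs the transcription factor C/EBP alpha to proteasomal degradation. Every group was kept in IMDM medium that held 10% serum of fetal calves and IL-3 at 5 ng/ml, so that the ligand of one of the receptors was supplied to all cells. The labels give no age or sex of the mice, do not say how Trib1 was introduced or whether a line was 1 clone, and describe the cells without Trib1 no further. Trib1 expression and leukaemic state went together in each comparison of lines with hematopoietic cells, and their effects cannot be told apart.

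IL-3, GM-CSF and IL-5 each bind an alpha chain of their own (Il3ra, Csf2ra, Il5ra), which pairs with the common beta chain, Csf2rb, to activate JAK2 and STAT5. Mice also have a second beta chain, Csf2rb2, which serves IL-3 alone. Csf1r, Kit and Flt3 are receptor tyrosine kinases of one structural class that bind macrophage CSF, stem cell factor and FLT3 ligand, while Csf3r is the single-chain receptor for granulocyte CSF. In bone marrow Kit marks progenitors and mast cells, Flt3 marks multipotent, lymphoid and dendritic progenitors, Csf1r marks monocytes and macrophages, and Csf3r marks neutrophils and their precursors.

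Values are the deposited intensities on a linear scale, with array medians between 30.5 and 32.0. Differences were tested with limma as log2(intensity + 15) over all 12560 genes that passed the filter, and a gene was called at a Benjamini-Hochberg adjusted p under 0.05. The added 15 draws the log2 differences of dim genes towards 0, and fold values below are on that scale. The p-values rest on the spread among arrays of a group alone, and this may be technical, since the labels do not say whether the 3 arrays of a group came from separate mice, lines or cultures. Correlations between arrays were 0.997 to 0.999 within groups and 0.915 to 0.993 between groups. The mean correlation of an array with the others of its own group was lowest for Ts1Cje arrays 1, 2 and 3, at 0.99705, 0.99782 and 0.99783. Next came B6 Trib1 array 3 at 0.99789 and Ts1Cje Trib1 array 3 at 0.99802. General blood-cell genes such as Ptprc and Cd53 were bright in all groups, with 8 of them summing to between 18164 and 22165 on each array. The Trib1 probe set that passed averaged 45.9 in Ts1Cje Trib1 lines, 46.2 in B6 Trib1 lines, 72.0 in Ts1Cje cells and 76.2 in B6 cells. It is not known to lie in the introduced sequence, so it does not check the labels.

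The lines with Trib1 carried more mRNA for the IL-3 receptor chains and for Kit, and less for Csf1r, Csf3r and Flt3, than hematopoietic cells of the same genotype. Csf2rb2 rose 2.85-fold on the Ts1Cje and 3.19-fold on the B6 background, Kit rose 1.87-fold and 1.74-fold, and Il3ra rose 1.42-fold and 1.38-fold. Csf1r was 8.61-fold lower on the Ts1Cje background and 2.07-fold lower on the B6 background, and Csf3r was 4.55-fold and 2.90-fold lower. On each background 7 of the 8 measured genes were called, 4 higher and 3 lower. Among all 12560 genes 60.8% were called in Ts1Cje Trib1 lines against Ts1Cje cells and 65.2% in B6 Trib1 lines against B6 cells, so that most genes on the array were called in these comparisons too. Between genotypes, Csf1r was lower in Ts1Cje Trib1 than in B6 Trib1 lines and higher in Ts1Cje than in B6 cells. In such bulk samples fewer cells of a type and less RNA per cell cannot be told apart.

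**Figure D1:**
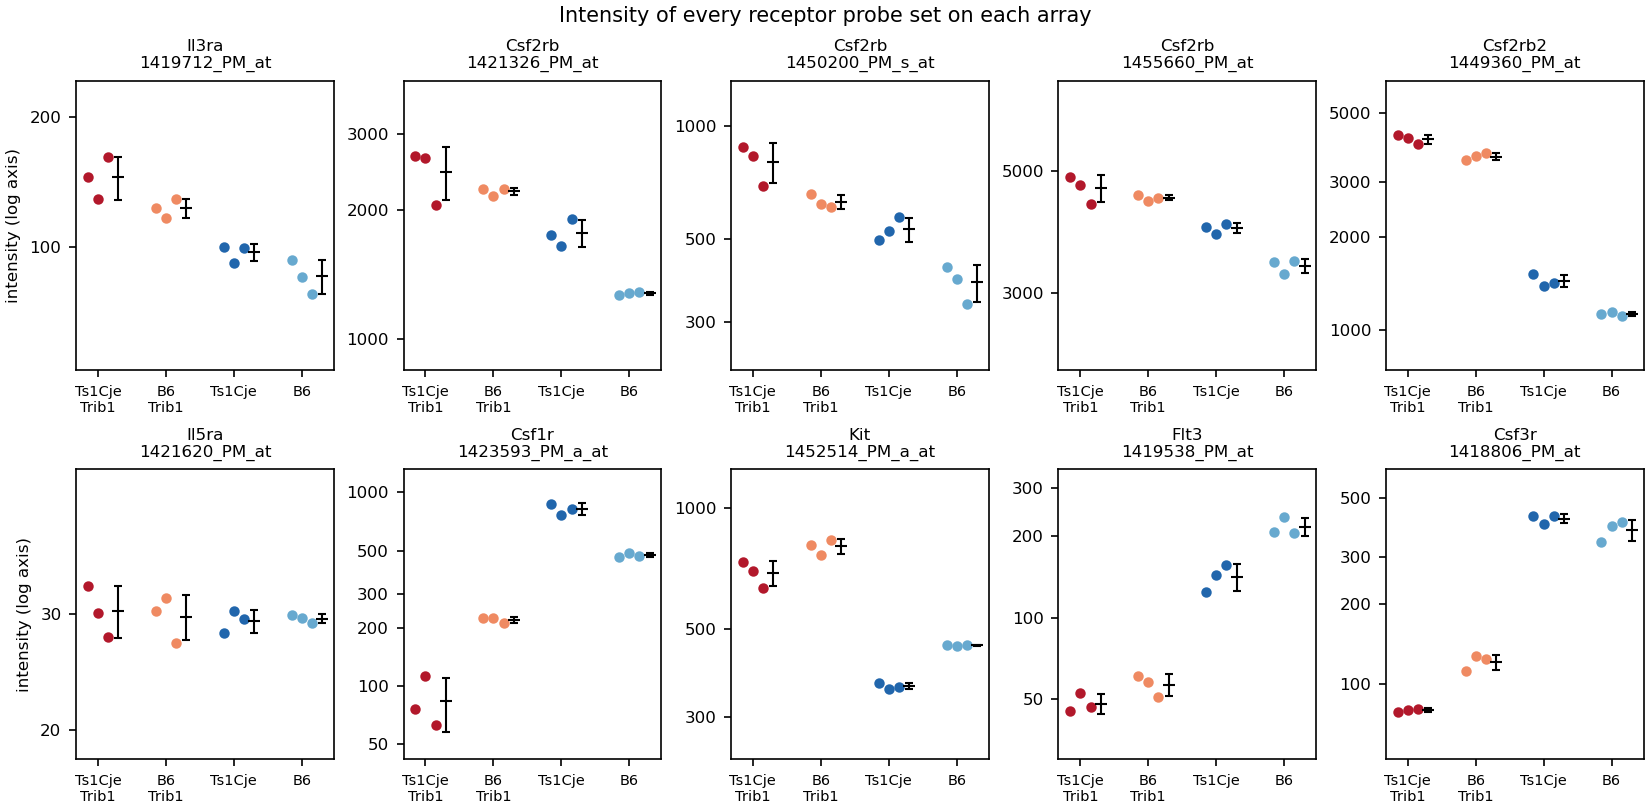
Intensity of each receptor probe set on each array, on log axes of a separate range per panel. Dots are single arrays and bars are the mean and SD of the 3 arrays of a group. Csf2rb2 and Kit were higher on all 6 arrays with Trib1 than on the 6 without, Csf1r, Flt3 and Csf3r were lower on all 6, and the Il5ra groups overlapped.

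The 250 bases before the RefSeq transcription start (build GRCm38.p6) are shown for a pair of receptors that rose in the Trib1 lines, Csf2rb2 and Kit, and a pair that fell, Csf3r and Flt3. Each runs 5′ to 3′ on the strand of its gene, and capitals mark matches on either strand to GAGGAA (a core bound by PU.1) or TTCNNNGAA (the STAT element). The windows are Csf2rb2 at chr15:78305722-78305971 on the minus strand, Kit at chr5:75574737-75574986 on the plus strand, Csf3r at chr4:126024409-126024658 on the plus strand and Flt3 at chr5:147400490-147400739 on the minus strand.
Csf2rb2: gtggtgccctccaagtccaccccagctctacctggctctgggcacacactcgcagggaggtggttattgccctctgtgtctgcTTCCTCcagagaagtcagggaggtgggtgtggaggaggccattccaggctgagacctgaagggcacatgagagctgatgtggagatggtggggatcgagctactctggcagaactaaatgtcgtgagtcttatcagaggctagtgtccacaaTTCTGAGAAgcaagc
Kit: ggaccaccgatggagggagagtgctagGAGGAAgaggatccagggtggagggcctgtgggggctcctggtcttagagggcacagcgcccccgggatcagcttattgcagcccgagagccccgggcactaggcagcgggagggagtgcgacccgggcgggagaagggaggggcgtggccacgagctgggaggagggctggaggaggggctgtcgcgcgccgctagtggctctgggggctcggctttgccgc
Csf3r: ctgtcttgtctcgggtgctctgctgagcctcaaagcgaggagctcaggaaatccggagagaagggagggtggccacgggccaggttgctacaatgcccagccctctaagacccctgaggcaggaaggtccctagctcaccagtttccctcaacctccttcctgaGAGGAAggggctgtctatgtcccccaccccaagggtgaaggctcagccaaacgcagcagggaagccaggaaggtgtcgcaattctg
Flt3: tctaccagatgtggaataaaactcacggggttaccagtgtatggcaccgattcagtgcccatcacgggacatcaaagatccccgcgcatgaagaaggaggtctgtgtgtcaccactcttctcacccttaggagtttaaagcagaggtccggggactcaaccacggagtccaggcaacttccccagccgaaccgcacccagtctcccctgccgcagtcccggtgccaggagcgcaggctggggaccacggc
The Csf2rb2 window held TTCCTC, which is GAGGAA on the minus strand, starting 167 bases before the start site, and the STAT letters TTCTGAGAA starting 15 bases before it. GAGGAA began 223 bases before the start of Kit and 86 bases before that of Csf3r, so it stood before genes that rose and a gene that fell. It occurred in 23.1% of the 27025 windows of this length, and TTCNNNGAA in 7.14% of them. The 4 windows had no match to TTGCNNAA (C/EBP, 9.55% of windows), AGATAA (the GATA factor motif, 10.2%), TGTGGT (the RUNX motif, 14.2%) or CACGTG (the E-box, 6.04%), and the Flt3 window matched none of the 6 motifs. These motifs do not overlap one another in the 4 windows. Among the other receptors Il3ra had TTGCTCAA starting 134 bases before its start and Il5ra had AGATAA starting 74 bases before. Csf2ra had GAGGAA in 2 copies, 14 and 8 bases before its start. In all, 7 of the 9 genes had a window.

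Csf2rb2, the IL-3-specific beta chain, separated the 4 groups without overlap. Its intensity was 4253, 4154 and 3985 on the Ts1Cje Trib1 arrays, 3536, 3643 and 3713 on the B6 Trib1 arrays, 1520, 1389 and 1416 on the Ts1Cje arrays and 1125, 1141 and 1113 on the B6 arrays. The lines with Trib1 were far above the hematopoietic cells, and within each kind of cell the Ts1Cje arrays were above the B6 arrays. The log2 difference was 1.51 (95% interval 1.42 to 1.60, adjusted p = 1.22e-12) for Ts1Cje Trib1 against Ts1Cje and 1.68 (1.58 to 1.77, adjusted p = 8.38e-13) for B6 Trib1 against B6. A larger log2 difference was found for 270 genes, or 2.15% of those tested, in Ts1Cje Trib1 against Ts1Cje and for 127 genes, or 1.01%, in B6 Trib1 against B6. Between genotypes Csf2rb2 was 1.14-fold higher in Ts1Cje Trib1 than in B6 Trib1 lines (log2 0.18 ± 0.04 SE, adjusted p = 0.00651). It was 1.28-fold higher in Ts1Cje than in B6 cells (log2 0.35 ± 0.04 SE, adjusted p = 1.7e-05).

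Csf2rb, the shared beta chain, followed the same order over a narrower range. The brightest of its probe sets, 1455660_PM_at, had intensities of 4880, 4734 and 4363 in Ts1Cje Trib1 lines, 4522, 4425 and 4482 in B6 Trib1 lines, 3968, 3854 and 4006 in Ts1Cje cells and 3415, 3257 and 3427 in B6 cells. All Trib1 arrays lay above all others, and the 2 groups of lines overlapped. Csf2rb rose 1.18-fold in Ts1Cje Trib1 against Ts1Cje (adjusted p = 0.000306), 1.33-fold in B6 Trib1 against B6 (adjusted p = 2.59e-06) and 1.17-fold in Ts1Cje against B6 (adjusted p = 0.000775). Between Ts1Cje Trib1 and B6 Trib1 lines its log2 difference was 0.06 with an interval from -0.04 to 0.15 (adjusted p = 0.425).

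The other Csf2rb probe sets gave the same directions in the 4 comparisons, with larger differences. Probe set 1421326_PM_at had 2664, 2636 and 2056 in Ts1Cje Trib1 lines, 2231, 2155 and 2235 in B6 Trib1 lines, 1747, 1643 and 1901 in Ts1Cje cells and 1268, 1277 and 1287 in B6 cells. Probe set 1450200_PM_s_at had 883, 831 and 695 in Ts1Cje Trib1 lines, 659, 619 and 610 in B6 Trib1 lines, 496, 524 and 574 in Ts1Cje cells and 422, 392 and 335 in B6 cells. Each of the 3 probe sets separated lines from hematopoietic cells of the same genotype, but the s_at probe set alone also separated the 2 groups of lines. The log2 differences of 1421326_PM_at, 1450200_PM_s_at and 1455660_PM_at were 0.46, 0.58 and 0.24 for Ts1Cje Trib1 against Ts1Cje, and 0.78, 0.70 and 0.41 for B6 Trib1 against B6. For Ts1Cje Trib1 against B6 Trib1 they were 0.14, 0.34 and 0.06, of which only that of 1450200_PM_s_at was called in a fit of all 28543 kept probe sets (adjusted p = 0.0246), where 8.91% were called higher. With the mean of the 3 probe sets in place of the brightest, the Csf2rb differences became 0.43 in the Ts1Cje and 0.63 in the B6 background. Csf2rb and Csf2rb2 are near-identical copies that lie next to each other on chromosome 15 with no protein-coding gene between them. Probes for one may therefore also have bound transcripts of the other, in any of these probe sets, which was not tested.

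The log2 ratio of Csf2rb2 to Csf2rb, each from its brightest probe set, was at least -0.35 on the 6 arrays with Trib1 and at most -1.38 on the 6 without, a difference of 1.27 between the means. It is given as a description, without a test. The ratio is not one of transcript numbers, because the probe sets differ in brightness for the same amount of RNA. Of the 3 Csf2rb probe sets the one used, 1455660_PM_at, rose least in the lines (0.24 and 0.41). The size of the difference therefore depends on the probe set.

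Il3ra, the alpha chain that gives the receptor its specificity for IL-3, was dimmer than both beta chains and rose less with Trib1 than Csf2rb2. Its probe set read 145, 129 and 162 in Ts1Cje Trib1 lines, 123, 117 and 129 in B6 Trib1 lines, 99.9, 92.0 and 99.8 in Ts1Cje cells and 93.3, 85.4 and 77.8 in B6 cells. Every array with Trib1 was above every array without, whereas the genotypes overlapped in both kinds of cell. The log2 difference was 0.51 (adjusted p = 3.51e-05) for Ts1Cje Trib1 against Ts1Cje and 0.46 (adjusted p = 0.000108) for B6 Trib1 against B6. Between genotypes it was 0.21 with Trib1 (interval 0.05 to 0.37, adjusted p = 0.0594) and 0.16 without (0.003 to 0.32, adjusted p = 0.0787), and neither was called. Under other settings these 2 values were called in places, with adjusted p from 0.0138 to 0.221 with Trib1 and from 0.00905 to 0.283 without.

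Il5ra, the alpha chain for IL-5 that is known from eosinophils and B-1 cells, stayed near the array median throughout. Its intensities were 33.1, 30.1 and 27.7 in Ts1Cje Trib1 lines, 30.3, 31.7 and 27.1 in B6 Trib1 lines, 28.0, 30.3 and 29.4 in Ts1Cje cells and 29.9, 29.6 and 29.0 in B6 cells. All 4 groups overlapped, and no comparison was called. The 95% intervals of the 4 comparisons all lay between -0.12 and 0.14 on the log2 scale. At this brightness a low level of Il5ra mRNA and background cannot be told apart.

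Kit, the receptor for stem cell factor, was highest in B6 Trib1 lines and lowest in Ts1Cje cells. Its probe set had 733, 698 and 633 in Ts1Cje Trib1 lines, 809, 765 and 833 in B6 Trib1 lines, 366, 354 and 358 in Ts1Cje cells and 454, 453 and 455 in B6 cells. No groups overlapped. Kit rose by 0.91 (log2, interval 0.80 to 1.01, adjusted p = 1.88e-09) in Ts1Cje Trib1 against Ts1Cje and by 0.80 (0.69 to 0.91, adjusted p = 1.06e-08) in B6 Trib1 against B6. It was the only called receptor gene that was lower with Ts1Cje in both kinds of cell, by a log2 difference of -0.22 in the lines (adjusted p = 0.00666) and -0.32 in the hematopoietic cells (adjusted p = 0.000147).

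Flt3, the receptor for FLT3 ligand, ran the other way and was brightest in B6 cells. It read 45.2, 52.7 and 46.8 in Ts1Cje Trib1 lines, 60.9, 58.1 and 51.1 in B6 Trib1 lines, 124, 144 and 157 in Ts1Cje cells and 207, 235 and 206 in B6 cells. The lines were below all hematopoietic cells and overlapped each other, while Ts1Cje cells were below B6 cells. Flt3 was 2.47-fold lower in Ts1Cje Trib1 than in Ts1Cje (adjusted p = 5.97e-09), 3.22-fold lower in B6 Trib1 than in B6 (adjusted p = 6.09e-10) and 1.48-fold lower in Ts1Cje than in B6 (adjusted p = 7.19e-05). In Ts1Cje Trib1 against B6 Trib1 lines the log2 difference was -0.18 (interval -0.36 to -0.01, adjusted p = 0.138) and was not called. With array 1 of the Ts1Cje cells and array 3 of the B6 Trib1 lines left out it was -0.24 and passed (adjusted p = 0.0183). That pair of arrays was chosen after seeing the data.

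Csf1r, the receptor for macrophage CSF and IL-34, had the widest span of the 8 genes, 3.11 on the log2 scale between the lowest and the highest group. Its intensities were 76.1, 113 and 63.0 in Ts1Cje Trib1 lines, 225, 225 and 211 in B6 Trib1 lines, 876, 762 and 821 in Ts1Cje cells and 464, 485 and 468 in B6 cells. No groups overlapped, and the Ts1Cje background held both the highest and the lowest group. The log2 difference was -3.11 (interval -3.38 to -2.83, adjusted p = 6.73e-11) for Ts1Cje Trib1 against Ts1Cje and -1.05 (-1.33 to -0.78, adjusted p = 8.51e-06) for B6 Trib1 against B6. Between genotypes it was -1.28 in the lines (interval -1.55 to -1.005, adjusted p = 7.26e-06), where 36 genes or 0.287% of those tested fell further. In the hematopoietic cells it was 0.77 (0.50 to 1.05, adjusted p = 0.000221).

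Genes of monocytes and macrophages ran largely in the order of Csf1r. The 14 tested members of that list summed to 6284 to 6422 on the Ts1Cje Trib1 arrays, 10575 to 10907 on the B6 Trib1 arrays, 22365 to 22786 on the Ts1Cje arrays and 15222 to 15366 on the B6 arrays. Of these, 13 fell and 1 rose in Ts1Cje Trib1 against Ts1Cje, and 9 fell and 4 rose in B6 Trib1 against B6. Between genotypes 11 fell and 1 rose in the lines, and 13 rose and 1 fell in the hematopoietic cells. For this and all later lists, 34.1% of all genes rose and 26.8% fell in Ts1Cje Trib1 against Ts1Cje. In B6 Trib1 against B6 the shares were 34.1% and 31.1%. Between genotypes they were 11.9% and 9.63% in the lines, and 23.3% and 29.3% in the hematopoietic cells. The complement subunit C1qa averaged 38.7 in Ts1Cje Trib1 lines, 28.2 in B6 Trib1 lines, 1395 in Ts1Cje cells and 607 in B6 cells, and so was near the array median in the lines. Ccr2, a chemokine receptor of inflammatory monocytes, went against the list and averaged 1202, 1327, 760 and 402 in the same order of groups. The part of cell composition in the Csf1r values was not tested.

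Csf3r, the receptor for granulocyte CSF, was at a similar level in both kinds of hematopoietic cell and lower in the lines. It read 78.5, 80.1 and 80.9 in Ts1Cje Trib1 lines, 112, 127 and 124 in B6 Trib1 lines, 426, 398 and 426 in Ts1Cje cells and 341, 392 and 406 in B6 cells. The lines lay below all hematopoietic cells and did not overlap each other, whereas Ts1Cje and B6 cells overlapped. Csf3r fell by 2.19 (log2, adjusted p = 1.19e-12) in Ts1Cje Trib1 against Ts1Cje and by 1.53 (adjusted p = 9.25e-11) in B6 Trib1 against B6. It was 1.43-fold lower in Ts1Cje Trib1 than in B6 Trib1 lines (adjusted p = 3.46e-05), and in Ts1Cje against B6 cells its log2 difference was 0.13 (interval -0.001 to 0.26, adjusted p = 0.0862). That last value passed with quantile normalization (adjusted p = 0.0224), with centring at the 75th percentile (adjusted p = 0.00818) and without B6 replicate 3 (adjusted p = 0.0400).

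Neutrophil genes, 15 of which were tested, summed to 11217 to 11465 on the Ts1Cje Trib1 arrays, 20435 to 20702 on the B6 Trib1 arrays, 41094 to 42001 on the Ts1Cje arrays and 25493 to 25979 on the B6 arrays. All 15 fell in Ts1Cje Trib1 against Ts1Cje, as Csf3r did. In B6 Trib1 against B6, 11 fell and 3 rose. The granule protease Elane averaged 257 in Ts1Cje Trib1 lines, 915 in B6 Trib1 lines, 2702 in Ts1Cje cells and 1790 in B6 cells. In Ts1Cje Trib1 against B6 Trib1 lines 14 fell, as Csf3r did, and in Ts1Cje against B6 cells 13 rose and 1 fell while Csf3r was not called. The part of neutrophil content in the Csf3r values was not tested.

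Mast cell and basophil genes were higher in the lines than in the hematopoietic cells, as were Kit and the IL-3 receptor chains. The 10 tested members summed to 24082 to 24965 on the Ts1Cje Trib1 arrays, 20944 to 21170 on the B6 Trib1 arrays, 4825 to 5098 on the Ts1Cje arrays and 2986 to 3021 on the B6 arrays, the order of Csf2rb2. In Ts1Cje Trib1 against Ts1Cje 9 rose, and all 10 rose in B6 Trib1 against B6. Between genotypes 4 rose and 3 fell in the lines, and 6 rose and 1 fell in the hematopoietic cells, while Kit was lower in both. Fcer1a, the alpha chain of the IgE receptor, averaged 5231 in Ts1Cje Trib1 lines, 2755 in B6 Trib1 lines, 246 in Ts1Cje cells and 43.9 in B6 cells. The mast cell tryptase Tpsab1 stayed dim, with group means from 22.8 to 26.1. Their part in the receptor values was not tested.

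B cell and dendritic cell genes were brightest in B6 cells, as was Flt3. The 9 B cell genes tested summed to 271 to 298 in Ts1Cje Trib1 lines, 257 to 291 in B6 Trib1 lines, 2240 to 2352 in Ts1Cje cells and 5882 to 6072 in B6 cells, and 8 of them fell in each of the comparisons in which Flt3 fell. The 6 dendritic cell genes summed to 1791 to 1944, 2465 to 2652, 5195 to 5440 and 6113 to 6527 in the same order of groups, and 5 of them fell on each background in the lines but 2 in Ts1Cje against B6. Of the B cell genes, Ebf1 averaged 11.9 in Ts1Cje Trib1 and 11.7 in B6 Trib1 lines, and Rag1 averaged 17.2 and 15.3. These means lay below the filter cut of 22.0 to 23.5. Both genes passed the filter only through the hematopoietic cells, so their falls in the lines add no support. The part of B cell and dendritic cell genes in the Flt3 values was not tested. Eosinophil genes, which would go with Il5ra, summed to 588 to 591 in Ts1Cje Trib1 lines, 1389 to 1500 in B6 Trib1 lines, 5081 to 5235 in Ts1Cje cells and 1687 to 1840 in B6 cells, an order set by Rnase2a alone. Without that gene, a check chosen after seeing the data, the other 5 summed to 573 to 575, 1376 to 1487, 871 to 987 and 442 to 474 in the same order of groups.

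**Figure D2:**
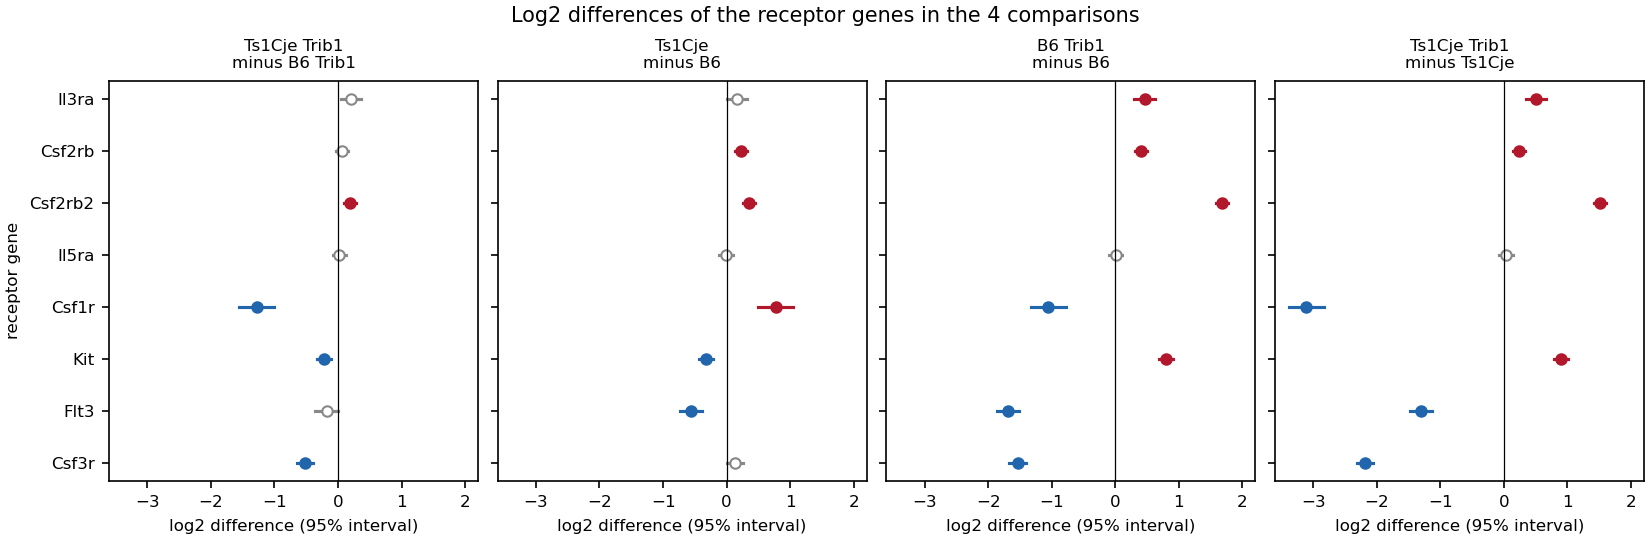
Log2 difference of each receptor gene in the 4 comparisons, with 95% intervals. Filled red points were called higher, filled blue points lower, and open points were not called. In the 2 comparisons of Trib1 lines with hematopoietic cells the same 4 genes lie to the right of 0 and the same 3 to the left.

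The comparison of lines with hematopoietic cells asked how Trib1-expressing AML cells differ from cells of the same genotype. Called higher on both backgrounds were Il3ra, Csf2rb, Csf2rb2 and Kit, and called lower were Csf1r, Flt3 and Csf3r. Among all genes 34.1% were called higher and 26.8% lower in Ts1Cje Trib1 against Ts1Cje, and 34.1% and 31.1% in B6 Trib1 against B6. Groups did not overlap for 7 of the 8 receptor genes on each background, against 64.3% of all genes on the Ts1Cje and 72.6% on the B6 background. The median log2 difference of the 8 genes was 0.14 on the Ts1Cje background, against 0.02 for all genes, and 0.21 on the B6 background, against 0.03. At least 2-fold lower and called were Csf1r, Flt3 and Csf3r on both backgrounds, where 6.06% and 4.10% of all genes met this mark, and at least 2-fold higher was Csf2rb2, where 4.16% and 2.68% did.

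How the trisomy goes with expression in leukaemic cells was asked by setting Ts1Cje Trib1 lines against B6 Trib1 lines. Csf2rb2 was called higher and Csf1r, Kit and Csf3r were called lower, 4 of the 8 genes, against 21.5% of all genes (11.9% higher and 9.63% lower). The groups did not overlap for the same 4 genes, against 36.4% of all genes. Il3ra, Csf2rb, Flt3 and Il5ra were not called. The median log2 difference of the 8 genes was -0.08, against 0.00 for all genes.

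In hematopoietic cells without Trib1, Ts1Cje against B6, 5 of the 8 genes were called, against 52.6% of all genes (23.3% higher and 29.3% lower). Csf2rb, Csf2rb2 and Csf1r were higher, and Kit and Flt3 were lower. The groups did not overlap for these 5, against 60.3% of all genes, so the share of called receptors was near that of the array as a whole. The median log2 difference of the 8 genes was 0.15, against 0.01 for all genes. This comparison shares the B6 arrays with that of B6 Trib1 against B6 and the Ts1Cje arrays with that of Ts1Cje Trib1 against Ts1Cje, so its values stand beside those and are not independent of them.

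The genotype difference itself differed between lines and hematopoietic cells for 5 of the 8 genes, against 48.6% of all genes, as tested by the interaction, which is the difference with Trib1 minus that without. It was positive for 1 gene and negative for 4, against 28.4% and 20.2% of all genes. For Csf1r it was -2.05 ± 0.18 (log2, SE, adjusted p = 1.09e-06), with opposite signs in the 2 kinds of cell, and 38 genes or 0.303% of those tested had a more negative value. For Csf3r it was -0.65 ± 0.09 (adjusted p = 4.73e-05). For Flt3 it was 0.38 ± 0.11 (adjusted p = 0.0145), the genotype difference being -0.18 in the lines and -0.56 in the hematopoietic cells, and it no longer passed with quantile normalization (adjusted p = 0.0819) or with centring at the 75th percentile (adjusted p = 0.0983).

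Both beta chains had small negative interactions, -0.17 ± 0.06 for Csf2rb (adjusted p = 0.0359) and -0.17 ± 0.06 for Csf2rb2 (adjusted p = 0.0361). These calls did not hold with median centring (adjusted p = 0.0965 for Csf2rb and 0.115 for Csf2rb2), nor in 7 and 8 of the 12 fits that left out 1 array. The Csf2rb call was also lost with the mean of its probe sets (adjusted p = 0.0792). In the fit of all kept probe sets the interaction of 1421326_PM_at was -0.32 (adjusted p = 0.0454). That of 1450200_PM_s_at was -0.12 and was not called (adjusted p = 0.465). Il3ra, Il5ra and Kit had interactions of 0.05, 0.03 and 0.10, which were not called (adjusted p = 0.718, 0.743 and 0.239). The Kit value ranged from -0.01 to 0.16 over other settings and passed without Ts1Cje Trib1 replicate 3 (adjusted p = 0.0380).

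**Figure D3:**
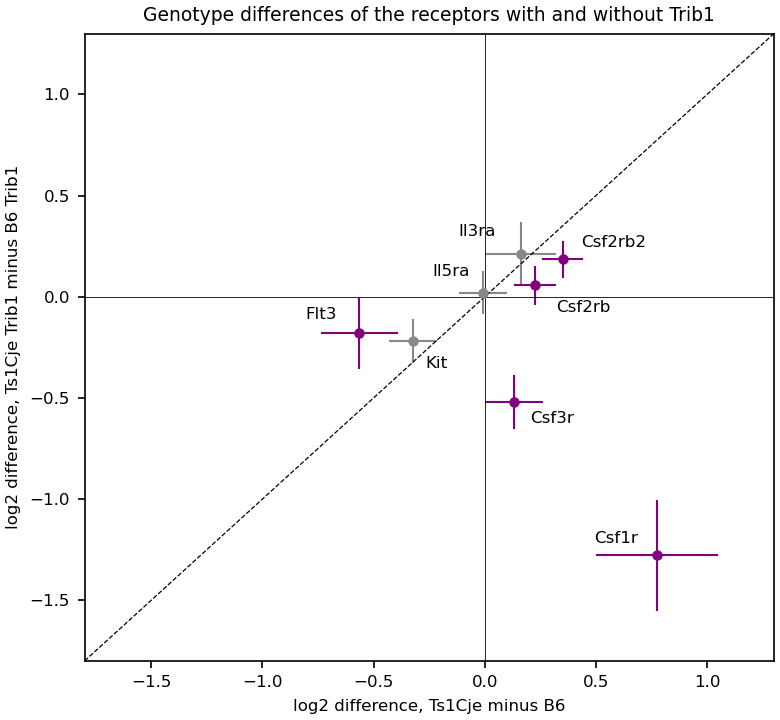
Genotype difference of each receptor gene in the lines (vertical axis, Ts1Cje Trib1 minus B6 Trib1, log2) against that in hematopoietic cells (horizontal axis, Ts1Cje minus B6, log2), with 95% intervals. Purple genes had a called interaction, grey genes had not, and the dashed line marks equal differences. Csf1r lies farthest from that line, at -1.28 with Trib1 and 0.77 without it.

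Il3ra, Csf2rb and Csf2rb2 ran from Ts1Cje Trib1 at the top through B6 Trib1 and Ts1Cje to B6. In that order Ts1Cje Trib1 and B6 Trib1 overlapped for Il3ra and Csf2rb, and Ts1Cje and B6 overlapped for Il3ra. Csf1r and Csf3r ran from Ts1Cje at the top through B6 and B6 Trib1 to Ts1Cje Trib1, and only Ts1Cje and B6 overlapped, for Csf3r. Kit ran from B6 Trib1 through Ts1Cje Trib1 and B6 to Ts1Cje, and Flt3 from B6 through Ts1Cje and B6 Trib1 to Ts1Cje Trib1 with an overlap between the lines. The span between the highest and the lowest group was 0.47 for Csf2rb, 0.67 for Il3ra, 1.12 for Kit, 1.86 for Csf2rb2, 1.87 for Flt3, 2.19 for Csf3r and 3.11 for Csf1r on the log2 scale, and 0.03 for Il5ra.

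The genes most like a receptor were found for the 5 receptors with a span of at least 1, by the root mean square distance between their centred log2 values over the 12 arrays. The nearest to Csf2rb2 was Il6, a cytokine gene, at 0.04 (Pearson r = 0.999), with means of 2780 in Ts1Cje Trib1 lines, 2530 in B6 Trib1 lines, 962 in Ts1Cje cells and 794 in B6 cells. The lipid desaturases Fads2 and Scd1 came next, at 0.06 and 0.09. The nearest to Csf1r was the transcription factor Cebpd at 0.16 (r = 0.992), with means of 106, 295, 1060 and 674 in the same order of groups, followed by Ugt1a6a and the macrophage protein Cd68 at 0.22 each. Csf3r was nearest to the calcium pump Atp2b1 at 0.10 (r = 0.996), Kit to Ncoa7 at 0.07 (r = 0.989) and Flt3 to the interferon-inducible Gbp3 at 0.13 (r = 0.986). The 12 points fall into 4 groups of 3 arrays, so these r describe shared group levels.

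Of the 8 ligands of these receptors, Il3, Il5 and Il34 did not pass the filter, so no transcript for IL-3, which the medium supplied, was measured above it. Kitl, which encodes stem cell factor, averaged 15.3 in Ts1Cje Trib1 lines, 14.9 in B6 Trib1 lines, 55.6 in Ts1Cje cells and 117 in B6 cells. Its means in the lines lay below the filter cut of 22.0 to 23.5. Kitl fell by 1.19 (adjusted p = 2.06e-06) in Ts1Cje Trib1 against Ts1Cje and by 2.13 (adjusted p = 6.69e-09) in B6 Trib1 against B6, where Kit rose. It also fell in Ts1Cje against B6, by 0.93 (adjusted p = 5.56e-05), where Kit fell too. Flt3l, which encodes FLT3 ligand, averaged 171, 135, 47.8 and 45.2 in the same order of groups. In the lines, where Flt3 fell, it rose by 1.57 (adjusted p = 2.35e-10) on the Ts1Cje and 1.32 (adjusted p = 2.34e-09) on the B6 background. Flt3 also fell in Ts1Cje against B6, but Flt3l was not called there (0.06, adjusted p = 0.481). Flt3l was higher in Ts1Cje Trib1 than in B6 Trib1 lines (0.31, adjusted p = 0.00731), where Flt3 was not called. Csf1, which encodes macrophage CSF, averaged 144, 212, 226 and 310 and was lower in all 4 comparisons, by between 0.43 and 0.60. Csf2 and Csf3 stayed between 31.2 and 40.9, near the array medians, and of these genes only Csf2 was called, lower in B6 Trib1 and in Ts1Cje than in B6.

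Of 27 tested kinases, adaptors and phosphatases that act next to these receptors, 8 rose and 16 fell in Ts1Cje Trib1 against Ts1Cje, and 9 rose and 10 fell in B6 Trib1 against B6. The shares of all genes were 34.1% and 26.8% in the first comparison and 34.1% and 31.1% in the second. The counts on the B6 background were near those shares. Jak2, the kinase bound to the beta chains, averaged 1199 in Ts1Cje Trib1 lines, 1236 in B6 Trib1 lines, 1289 in Ts1Cje cells and 1259 in B6 cells. Gab2, an adaptor of the beta chains and of Kit, averaged 639, 620, 394 and 327, while the related Gab1 averaged 39.1, 40.8, 135 and 103. With the trisomy, 4 rose and 7 fell in the lines, and 8 rose and 4 fell in the hematopoietic cells. The tyrosine kinase Fgr, known from myeloid cells, had a log2 difference of -0.54 in the lines and 0.51 in the hematopoietic cells (interaction -1.05, adjusted p = 1.05e-06).

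Of 17 tested genes known to respond to IL-3 or STAT5, 12 rose and 5 fell in Ts1Cje Trib1 against Ts1Cje, and 10 rose and 4 fell in B6 Trib1 against B6, with medians of 0.31 and 0.20 against 0.02 and 0.03 for all genes. Lif, a cytokine gene, averaged 1987 in Ts1Cje Trib1 lines, 1599 in B6 Trib1 lines, 102 in Ts1Cje cells and 79.6 in B6 cells. Pim1, a survival kinase, averaged 1027, 982, 703 and 684, and Ccnd2, a D-type cyclin, averaged 2610, 2249, 1156 and 1351. Socs3, a feedback inhibitor, fell, with log2 differences of -2.15 and -1.79 in the same comparisons (adjusted p = 1.38e-13 and 1.76e-12). Cish, another feedback inhibitor and STAT5 target, rose on the Ts1Cje background alone (0.27, adjusted p = 0.00031), and its value on the B6 background was 0.00. Between genotypes 4 rose and 4 fell in the lines, and 2 rose and 7 fell in the hematopoietic cells.

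Of 20 tested transcription factors known to act on these receptor genes, 11 rose and 8 fell in Ts1Cje Trib1 against Ts1Cje, and 9 rose and 8 fell in B6 Trib1 against B6. The shares of all genes were 34.1% and 26.8% in the first comparison and 34.1% and 31.1% in the second. Spi1, which encodes PU.1, an activator of Csf1r, averaged 304 in Ts1Cje Trib1 lines, 450 in B6 Trib1 lines, 890 in Ts1Cje cells and 637 in B6 cells. This was the order of Csf1r. Runx1, also of this list, averaged 684, 499, 393 and 318 in the same order of groups. It rose in the lines on both backgrounds, where Csf1r fell (log2 0.78 on the Ts1Cje and 0.62 on the B6 background). Gata2, a factor of progenitors and mast cells, averaged 1674, 1502, 362 and 345, and Tal1, a factor that acts on Kit, averaged 1185, 1140, 197 and 443. Irf8, a factor of monocytes and dendritic cells, averaged 32.6, 91.9, 521 and 750. Cebpa, whose protein Trib1 targets, averaged 1033, 930, 513 and 400 at the mRNA level. Between genotypes 4 of the 20 rose and 8 fell in the lines, and 7 rose and 9 fell in the hematopoietic cells. The part of these factors in the receptor values was not tested.

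**Figure D4:**
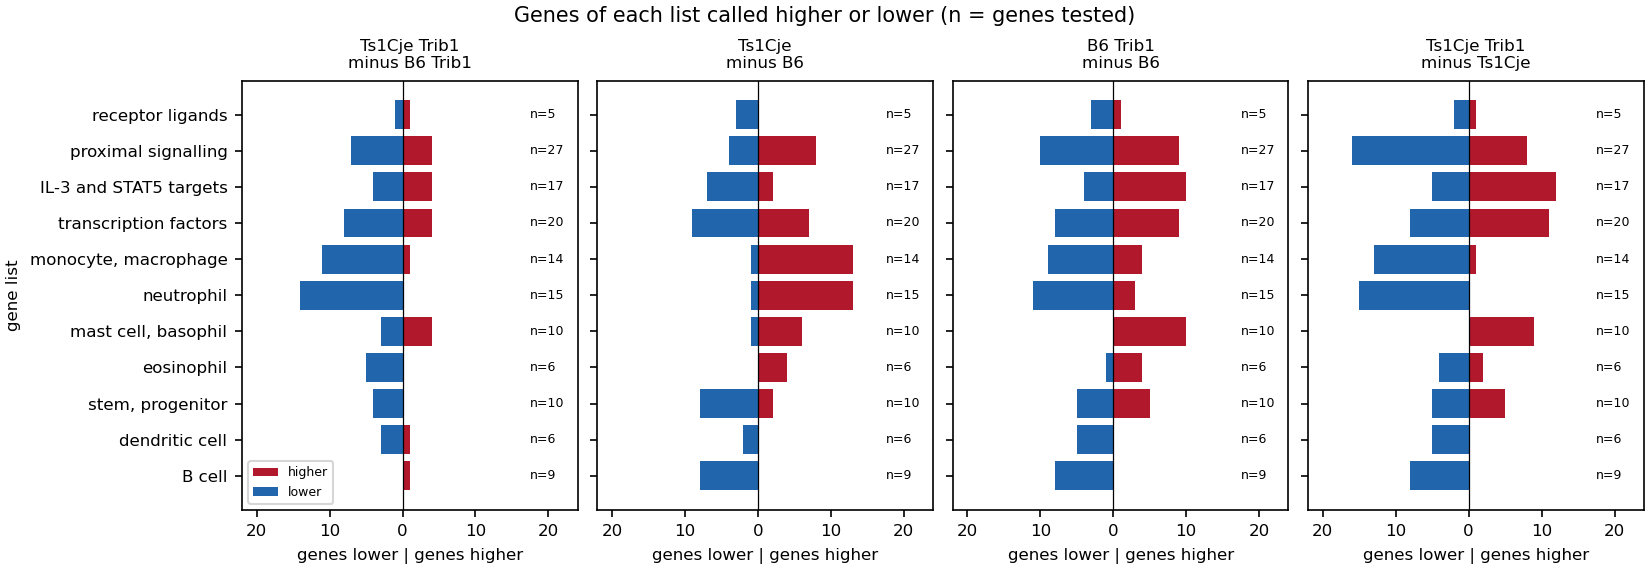
Number of genes of each list called higher (right, red) or lower (left, blue) in the 4 comparisons, with the number tested beside each bar. Neutrophil and monocyte genes were mostly lower in Ts1Cje Trib1 than in Ts1Cje and in B6 Trib1 lines, and mostly higher in Ts1Cje than in B6 cells, while mast cell and basophil genes were mostly higher in both kinds of Trib1 line.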

How the data were processed

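RNA of 12 mouse samples had been hybridised to Affymetrix arrays of perfect-match probes, from 100 ng of total RNA per the labels. The authors deposited 1 linear intensity per probe set and array. The submitters' processing notes name MAS5 without its role. That method uses mismatch probes, which these arrays lack, so how the authors summarised and scaled the values was not settled. Of the probe sets 28898 had 1 gene symbol, 551 several and 15588 none, and 104 were controls.

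A probe set was kept above the 40th percentile of its array (22.0 to 23.5) in at least 3 arrays, the deposited intensities were taken to log2(intensity + 15) without further scaling, and the brightest kept probe set stood for its gene. Group means were fitted with limma 3.58.1 in R 4.3.3, with p-values adjusted over 12560 genes in each of 5 contrasts, and checked on simulated data. Groups came from sample titles. Replicate numbers were not used as pairs, since only 4 of 18 same-numbered pairs correlated above 0.1 (r from -0.45 to 0.35). Named genes were all receptor genes, up to 3 members of each list with the smallest adjusted p in a comparison, and the 3 nearest patterns of each receptor with a span of at least 1. Other list members named as examples were chosen after their values were seen. The receptors and lists were chosen with earlier results of these data known. A list gene could pass the filter through the lines alone or the hematopoietic cells alone, which in part fixes the direction of its difference. The number of arrays limits the precision. Alternatives were quantile normalization, median centring, another offset, a floor, other filters, other probe set rules, another variance model, only the groups compared, a replicate block and each array left out. Centring at the 75th percentile and leaving out a pair of arrays were chosen after seeing the data.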

Additional observations from a re-analysis of the deposited data

Results flagged for a closer look

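For 5 receptor genes the genotype difference in the Trib1 lines differed from that in the hematopoietic cells by the interaction test of limma, where 48.6% of all 12560 genes were called, so the share of receptors was near that of the array. The interaction was -2.05 for Csf1r, -0.65 for Csf3r, 0.38 for Flt3, -0.17 for Csf2rb and -0.17 for Csf2rb2 on the log2 scale. The values for Csf1r and Csf3r kept their call in all 25 alternatives, while those for Csf2rb and Csf2rb2 lost it in 10 and 11 of 25 and that for Flt3 in 2. Csf1r alone had called genotype differences of opposite sign, -1.28 with Trib1 and 0.77 without. Outlying arrays were not tested in groups of 3.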

How the results depend on the processing

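The 40 differences of single receptor genes were recomputed in 1027 alternatives, of which 991 left the call as it was, 23 lost a call, 13 gained one and 0 turned the direction of a called value. The calls of Trib1 lines against hematopoietic cells, 4 higher and 3 lower on each background, were the same in every alternative run. In Ts1Cje Trib1 against B6 Trib1, 2 genes in place of 1 were called higher with median centring and with array 1 of the Ts1Cje cells and array 3 of the B6 Trib1 lines left out together. In Ts1Cje against B6, 5 in place of 3 were called higher with quantile normalization and with centring at the 75th percentile. The interaction called 3 genes in place of 5, with 2 negative in place of 4, under median centring and without that pair of arrays, and 0 positive in place of 1 under quantile normalization and 75th percentile centring. The cause was not tested.

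With single arrays left out, 4 to 5 genes were called in Ts1Cje Trib1 against B6 Trib1 (1 to 2 higher, 3 lower), 5 to 6 in Ts1Cje against B6 (3 to 4 higher, 2 lower), 7 on each background between lines and hematopoietic cells, and 3 to 5 for the interaction (1 to 2 positive, 2 to 4 negative). The interaction fell to 3 without B6 replicate 2, Ts1Cje replicate 1, B6 Trib1 replicate 2 or B6 Trib1 replicate 3. Without Ts1Cje Trib1 replicate 3 Kit was called too and the negative calls numbered 2, and without Ts1Cje Trib1 replicate 2 Il3ra was also called higher in Ts1Cje Trib1 against B6 Trib1. With the replicate number as a block, 4 and 5 receptor genes were called between genotypes, and the Csf2rb2 interaction alone lost its call (adjusted p = 0.0519). No pairing by replicate number was evident, with 3 of 12 arrays most like their own number. With 3 arrays per group this check cannot exclude a pairing.

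Centring at the 75th percentile moved the split of all genes to 5048 higher and 2421 lower in Ts1Cje against B6, against 2925 and 3677, to 6211 and 2799 in B6 Trib1 against B6, against 4283 and 3907, and to 2206 and 4208 for the interaction, against 3568 and 2541. It moved the median of all genes to 0.13 in B6 Trib1 against B6 and to -0.10 for the interaction. Probe sets near the array median, such as that of Il5ra, cannot show small changes.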

Other observations

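Megakaryocyte genes were higher in the lines than in the hematopoietic cells, as were the IL-3 receptor chains and Kit. All 8 tested, among them the platelet integrin Itga2b, rose in both comparisons of lines with hematopoietic cells, with sums of 12253 to 12904 on the Ts1Cje Trib1 arrays, 14736 to 15132 on the B6 Trib1 arrays, 6237 to 6430 on the Ts1Cje arrays and 7172 to 7426 on the B6 arrays. Itga2b averaged 1346 in Ts1Cje Trib1 lines, 1464 in B6 Trib1 lines, 212 in Ts1Cje cells and 430 in B6 cells. In Ts1Cje Trib1 against B6 Trib1 lines 6 of the 8 fell, as Kit did, and 6 fell and 1 rose in Ts1Cje against B6 cells.

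Of 10 stem and progenitor genes tested, 5 rose and 5 fell in each comparison of lines with hematopoietic cells. Cd34 averaged 467 in Ts1Cje Trib1 lines, 514 in B6 Trib1 lines, 122 in Ts1Cje cells and 382 in B6 cells. In Ts1Cje against B6 cells 8 fell and 2 rose, and in Ts1Cje Trib1 against B6 Trib1 lines 4 fell and 0 rose, both comparisons in which Kit fell.

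Of 11 T and NK cell genes, 4 rose and 6 fell in each comparison of lines with hematopoietic cells. Granzyme B (Gzmb), which mast cells also make, averaged 7613 in Ts1Cje Trib1 lines, 6955 in B6 Trib1 lines, 602 in Ts1Cje cells and 392 in B6 cells. Of 6 erythroid genes, 2 rose and 1 fell in Ts1Cje Trib1 against Ts1Cje, and 3 rose and 2 fell in B6 Trib1 against B6. Of 6 stromal and endothelial genes, which summed to 442 to 1110 on every array, 2 rose and 3 fell in Ts1Cje Trib1 against Ts1Cje, and 3 rose and 2 fell in B6 Trib1 against B6. Without Pecam1, a check chosen after seeing the data, the other 5 stromal and endothelial genes summed to 166 to 220 on every array. Of the 8 general blood-cell genes, 0 rose and 5 fell in Ts1Cje Trib1 against Ts1Cje, and 3 rose and 3 fell in B6 Trib1 against B6. Of 6 eosinophil genes tested, 2 rose and 4 fell on the Ts1Cje background, and 4 rose and 1 fell on the B6 background. Beside all these counts, 34.1% of all genes rose and 26.8% fell on the Ts1Cje background, and 34.1% and 31.1% on the B6 background.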
